A study of Mus musculus with 12 samples.

Results

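The genes followed here carry out fatty acid oxidation and ketone body metabolism in mouse liver. They were chosen by symbol, 35 of the 55421 genes in the deposited count table, and all 35 were measured well enough to be tested. By the main site of their proteins 19 were grouped as mitochondrial and 10 as peroxisomal. The other 6 (Acsl1, Crat, Acot1, Vnn1, Fgf21 and Ppargc1a) act at both sites or elsewhere. Liver RNA came from adult male C57BL/6 mice of 2 strains. Fra1hep mutants carry an inducible transgene for Fra-1 (gene Fosl1) and Fra2hep mutants carry one for Fra-2 (gene Fosl2); both proteins are subunits of the transcription factor AP-1. Each strain was sampled as 3 mutants and 3 littermate controls from the same cages, 12 libraries in 4 groups. Doxycycline was taken away from mutants and controls alike at weaning (3 weeks), which turned the transgene on in the mutants. The titles and the design text put sampling 2 months later. The treatment label of the 3 Fra2hep mutants says 9 months, so if that label holds, age and genotype cannot be told apart in that strain. No source used here names the promoter that drives the transgene, and the material is labelled as liver that is mostly hepatocytes.

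Fatty acids enter oxidation as acyl-CoA. Long chains cross into the mitochondrion on carnitine and are shortened there by a repeated cycle of dehydrogenation, hydration, dehydrogenation and thiolytic cleavage, whose electrons pass through the electron transfer flavoprotein to the respiratory chain. Very long and branched chains are first shortened in peroxisomes by a parallel set of enzymes, and the shorter products leave as carnitine esters for the mitochondrion. In the fasting liver the acetyl-CoA that results is turned into ketone bodies for other tissues, and many of the genes are switched on by the fatty acid receptor PPAR-alpha.

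The transgenes were seen in the libraries expected from the labels. Levels are in CPM, counts scaled to a common library size. Fosl1 stood at 0, 0 and 0.0538 CPM in Fra1hep controls and at 9.41, 10.2 and 12.8 CPM in Fra1hep mutants. Fosl2 stood at 12.2, 48.1 and 16.0 CPM in Fra2hep controls and at 398, 421 and 421 CPM in Fra2hep mutants. Fra2hep control 2 was thus the control library with the most Fosl2. Libraries held 16834041 to 20464807 counts.

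In Fra1hep mutants the mean levels of the oxidation genes lay below those of the controls almost throughout. By median the peroxisomal ones lay lower than the mitochondrial ones, and 2 of the 35 members fell by the test used. These were Acsl1, which couples long-chain fatty acids to CoA, and Pex11a, a membrane protein of peroxisome division. Of all 14076 genes tested, 3.84% were called in this comparison (edgeR quasi-likelihood test, two-sided, Benjamini-Hochberg adjusted p under 0.05 over all genes), and 0.938% were called lower. No member rose, where 2.9% of all genes were called higher. DESeq2 called 7 members and 7.26% of all genes with an adjusted p, and limma-voom 2 members and 3.57%. At an unadjusted p under 0.05 there were 9 members (Acsl1, Pex11a, Acaa1a, Acaa1b, Eci1, Eci2, Decr2, Crot and Etfb), against 16.3% of all genes. The log2 fold change was below 0 for 34 of 35 members, against 49.0% of all genes. The members' median was -0.33, where the median of all genes was 0.01. In 15 of 35 members all 3 mutants lay below all 3 controls, which held for 9.98% of all genes, and in 0 of 35 did all mutants lie above, against 11.7%. With no scaling factor for library composition the median of all genes itself moved by 0.14 on the log2 scale. The number of members below 0 was then 26, whereas 34 lay below that shifted median, and 86.9% rather than 75.6% of all calls were higher. In bulk liver, fewer hepatocytes and less RNA per hepatocyte cannot be told apart.

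**Figure D1:**
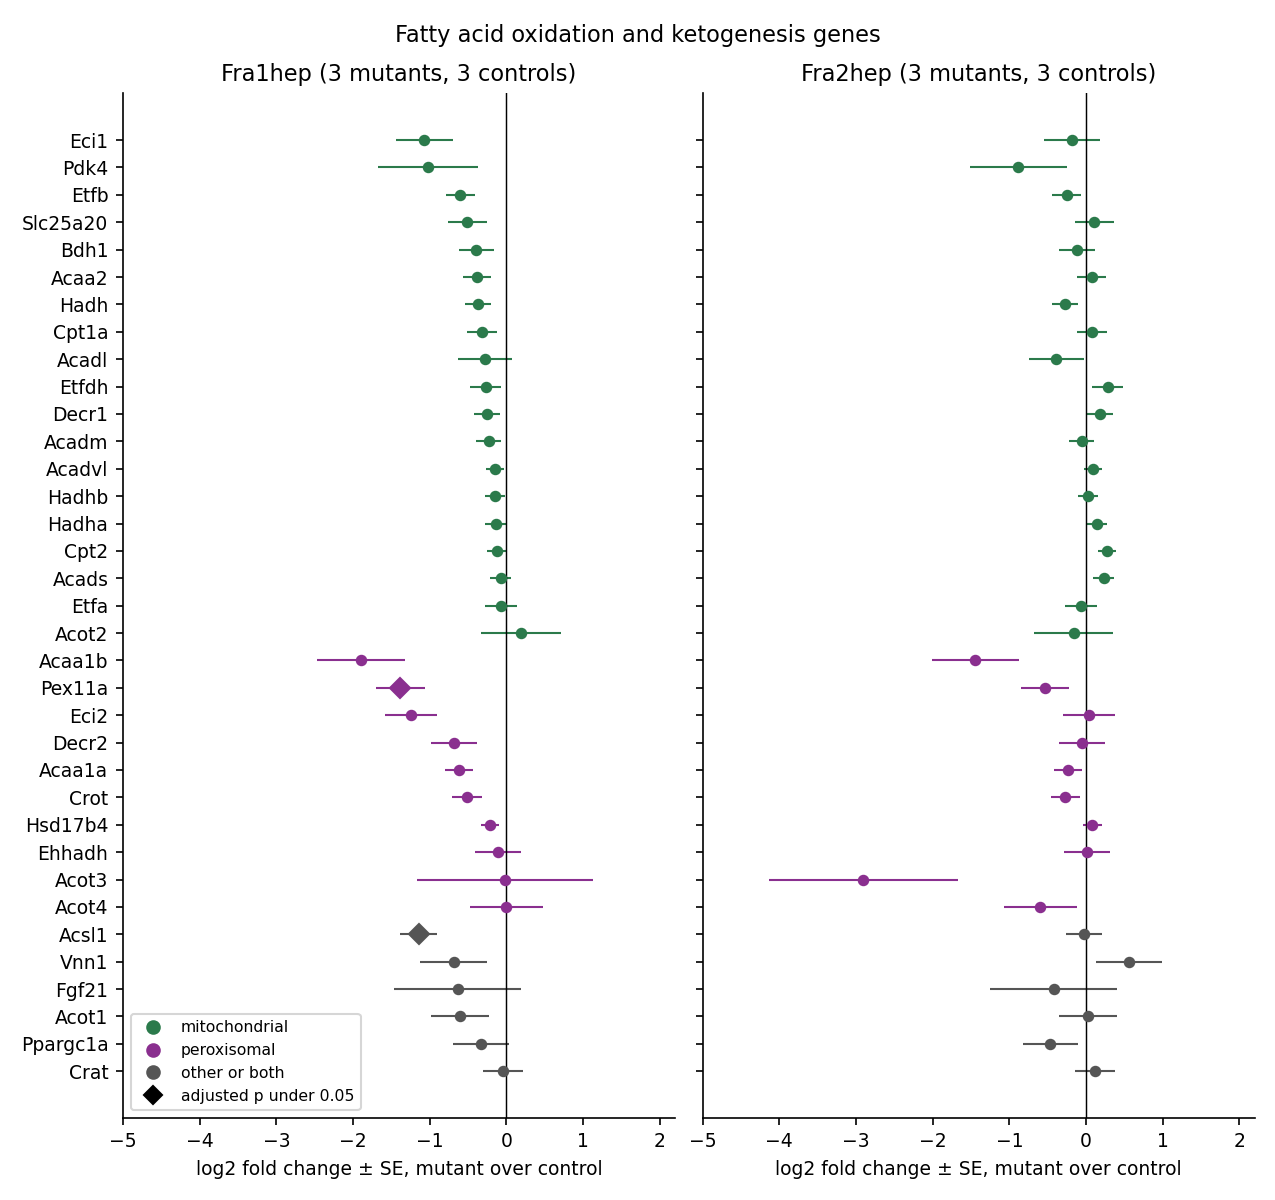
Log2 fold change of each of the 35 genes, mutant over control, with its standard error, in Fra1hep (left) and Fra2hep (right), coloured by compartment; diamonds mark an adjusted p under 0.05. In Fra1hep 34 of 35 points lie below 0 and 2 are called, while in Fra2hep 19 lie below 0 and none is called.

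Acsl1 makes acyl-CoA from long-chain fatty acids. It was measured at 782, 961 and 1089 CPM in Fra1hep controls and at 378, 352 and 551 CPM in the mutants. The highest mutant thus lay well under the lowest control. Its log2 fold change was -1.14 ± 0.24 (SE, n = 3 against 3, edgeR adjusted p = 0.0224), 45.2% of the control level. In Fra2hep the controls had 1204, 936 and 968 CPM and the mutants 770, 916 and 1368 CPM, so the groups overlapped, with a log2 fold change of -0.03 ± 0.24. The call in Fra1hep was lost when control 2 (edgeR adjusted p = 0.0689), control 3 (0.0744), mutant 1 (0.0848) or mutant 2 (0.0744) was left out, with log2 fold changes between -1.39 and -1.01 over all alternatives.

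Pex11a stood at 113, 102 and 87.5 CPM in Fra1hep controls and at 29.05, 39.2 and 47.4 CPM in the mutants. The groups were far apart, with a log2 fold change of -1.39 ± 0.32 (SE, n = 3 against 3, edgeR adjusted p = 0.0355), 38.3% of control. In Fra2hep it stood at 70.3, 113 and 119 CPM in controls and at 36.1, 86.9 and 84.4 CPM in mutants. These groups overlapped through control 1, the log2 fold change was -0.54 ± 0.31, and the gene was not called (edgeR adjusted p = 0.577). Averaged over the strains, each against its own controls, Pex11a fell by 0.96 ± 0.22 on the log2 scale (edgeR adjusted p = 0.0273). The call in Fra1hep was lost without any of the 6 Fra1hep libraries and without Fra2hep control 2 (edgeR adjusted p = 0.0504 to 0.123), and with no filter on low counts (0.106). The averaged call was lost without Fra1hep control 1 or 2, Fra1hep mutant 1 or 2, or Fra2hep control 2 or 3 (edgeR adjusted p = 0.0506 to 0.0667) and with no filter on low counts (0.0860).

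Acaa1b, a peroxisomal thiolase that cleaves the shortened chain, lay lowest of the members in Fra1hep. Its levels were 845, 863 and 982 CPM in Fra1hep controls and 235, 75.4 and 415 CPM in mutants. In Fra2hep they were 563, 1531 and 916 CPM in controls and 184, 389 and 533 CPM in mutants. It was the only member with all 3 mutants below all 3 controls in both strains, although Fra2hep mutant 3 came close to Fra2hep control 1. Neither strain alone gave a call (log2 fold change -1.89 ± 0.57 in Fra1hep, edgeR adjusted p = 0.111, and -1.44 ± 0.57 in Fra2hep, 0.350). The average of the strains did, at -1.67 ± 0.40 (edgeR adjusted p = 0.0348), 31.5% of control. This averaged call was lost without any of the 3 Fra1hep controls, Fra1hep mutant 1, Fra2hep control 2 or 3, or Fra2hep mutant 1 or 2 (edgeR adjusted p = 0.0604 to 0.0851) and with no filter on low counts (0.135). Acaa1b shares sequence with its neighbour Acaa1a: 30.5% of the 50-base windows of its exons also occur in Acaa1a, and no source used here says how such reads were assigned.

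**Figure D2:**
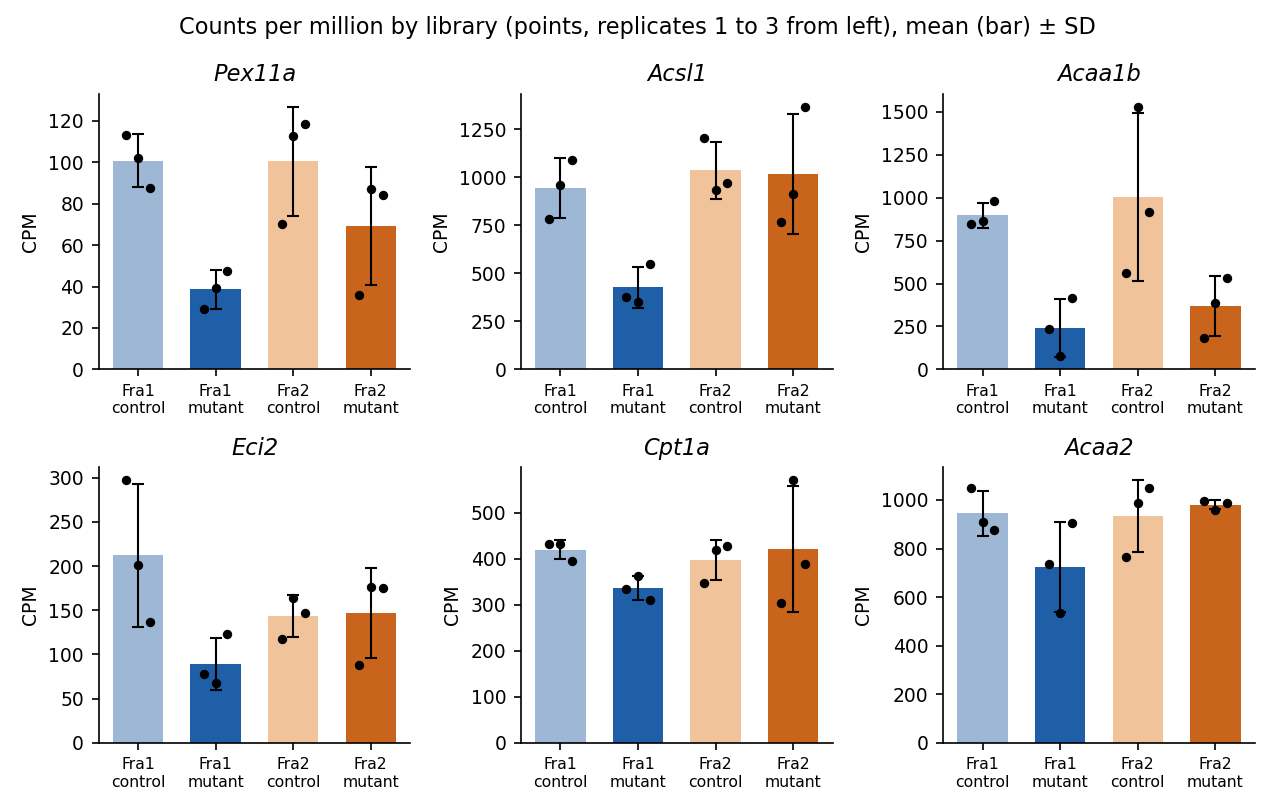
Level in CPM of 6 members by library (points), with the group mean (bar) and SD. Pex11a and Acsl1 separate mutants from controls in Fra1hep, Acaa1b does so in both strains, and Eci2, Cpt1a and Acaa2 are shown as members without a call.

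The promoters of these 3 genes are shown because the transgenes encode subunits of a factor that binds DNA. RefSeq promoter sequences (build GRCm38.p6, 250 bases before to 50 after the start) matched 30 of the 35 symbols, and Acaa2, Crat, Decr1, Hsd17b4 and Vnn1 were not among them. Both strands were searched for the AP-1 element TGANTCA and for the direct repeat bound by PPAR-alpha, AGGNCA repeated after a spacing of 1 base. N stood for any base, so the middle base of the AP-1 element was left free. Neither was found in the windows of Pex11a, Acaa1b or Acsl1, including a second Acsl1 window. The 250 bases before the start read as follows, all in lower case since no match was found.
Pex11a (chr7:79743132-79743381, - strand): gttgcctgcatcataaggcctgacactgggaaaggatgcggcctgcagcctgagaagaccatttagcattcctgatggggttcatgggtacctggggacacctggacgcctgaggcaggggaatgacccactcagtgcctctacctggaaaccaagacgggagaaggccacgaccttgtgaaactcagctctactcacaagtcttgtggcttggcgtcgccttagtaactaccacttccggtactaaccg
Acaa1b (chr9:119157094-119157343, - strand): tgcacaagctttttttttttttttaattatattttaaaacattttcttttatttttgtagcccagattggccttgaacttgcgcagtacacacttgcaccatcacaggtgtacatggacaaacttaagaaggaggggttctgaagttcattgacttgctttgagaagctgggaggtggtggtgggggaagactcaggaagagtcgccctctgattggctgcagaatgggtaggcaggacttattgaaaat
Acsl1 (chr8:46470787-46471036, + strand): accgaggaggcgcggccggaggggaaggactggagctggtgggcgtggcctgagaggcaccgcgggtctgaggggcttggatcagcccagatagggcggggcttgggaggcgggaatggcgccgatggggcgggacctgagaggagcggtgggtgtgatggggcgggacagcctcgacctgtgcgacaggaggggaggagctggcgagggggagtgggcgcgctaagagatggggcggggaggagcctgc
The AP-1 element was present in 2 of the 30 matched genes, against 8.97% of all 27025 genes in the RefSeq table. The PPAR direct repeat was present in 0 of 30, against 0.451% of all genes. The AP-1 matches were in Acadvl, starting at base 17 counted from the start site as base 1, and in Acot4, starting 111 bases before it. They are shown with 8 bases on each side and the match in capitals. The free middle base was G in Acadvl and T in Acot4.
Acadvl (chr11:70015398-70015420, - strand): gtggagcaTGAGTCAgggcccag
Acot4 (chr12:84038260-84038282, + strand): ctttgcctTGATTCAttcacttg
Neither of these genes was called in any comparison: Acadvl had log2 fold changes of -0.15 ± 0.12 in Fra1hep and 0.09 ± 0.12 in Fra2hep, and Acot4 of 0.00 ± 0.47 and -0.59 ± 0.47. A match is a description of the letters, and its absence says only that they are not in this window.

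The carnitine shuttle had 6 members, of which Acsl1 was called. Cpt1a, the outer-membrane transferase at which malonyl-CoA sets the rate of entry, was at 431, 431 and 395 CPM in Fra1hep controls and at 334, 363 and 311 CPM in the mutants. All mutants lay below all controls by a modest margin (80.1% of control, log2 fold change -0.32 ± 0.19, edgeR adjusted p = 0.455). Slc25a20, the carnitine-acylcarnitine carrier of the inner membrane, also had all Fra1hep mutants below the controls, at -0.51 ± 0.25. Crot, the peroxisomal transferase that makes carnitine esters of shortened chains, was at 624, 626 and 635 CPM in Fra1hep controls and at 395, 425 and 500 CPM in mutants. Its groups did not overlap and its controls were very close together, yet its log2 fold change of -0.51 ± 0.19 was not called (edgeR adjusted p = 0.193). In Fra2hep, control 1 was the highest library for Crot at 957 CPM. Cpt2, which returns the chain to CoA inside the mitochondrion, and Crat, the transferase for the shortest chains, were at -0.13 ± 0.12 and -0.05 ± 0.26 in Fra1hep.

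The mitochondrial cycle moved little. Its 8 members (the dehydrogenases Acadvl, Acadl, Acadm and Acads for chains of falling length, the trifunctional protein Hadha and Hadhb, the dehydrogenase Hadh and the thiolase Acaa2) all had negative log2 fold changes in Fra1hep, but none lay beyond -0.38 and none was called. Hadh had the smallest p of the group over both strains. It stood at 392, 322 and 310 CPM in Fra1hep controls and at 297, 211 and 288 CPM in mutants, and in Fra2hep at 256, 370 and 336 CPM against 253, 274 and 270 CPM. Its averaged log2 fold change was -0.32 ± 0.12 (edgeR adjusted p = 0.163). Among the 19 mitochondrial members, 15 had a 95% interval within 2-fold in either direction in Fra1hep and 16 in Fra2hep. Acadvl, for example, had an interval of -0.38 to 0.08 in Fra1hep.

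Of the electron transfer genes, Etfb, the beta subunit of the flavoprotein, stood lowest. Its levels were 96.7, 65.4 and 70.2 CPM in Fra1hep controls and 50.1, 46.8 and 56.0 CPM in mutants, without overlap. In Fra2hep the controls had 52.0, 73.6 and 54.4 CPM and the mutants 55.8, 39.8 and 55.2 CPM. The log2 fold changes were -0.60 ± 0.19 and -0.25 ± 0.19, and neither was called (edgeR adjusted p = 0.118 and 0.684). Of the 50-base windows of Etfb, 43.8% also occur in Gm45233, which overlaps it on the same strand and had a median of 0 counts. The counts of Etfb are uncertain to that extent. The alpha subunit Etfa was at -0.07 in both strains, and Etfdh, which hands the electrons to ubiquinone, was at -0.27 ± 0.20 in Fra1hep and 0.28 ± 0.20 in Fra2hep.

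The auxiliary enzymes, which let unsaturated chains pass through the cycle, had the lowest median of any role in Fra1hep (-0.88). In each of the 4 all Fra1hep mutants lay below all controls, which held for 9.98% of all genes. The peroxisomal isomerase Eci2 was at 297, 202 and 137 CPM in Fra1hep controls and at 77.4, 67.3 and 123 CPM in mutants, and its mitochondrial counterpart Eci1 at 198, 155 and 136 CPM against 77.8, 42.7 and 112 CPM. The controls themselves spread widely in both genes. Their log2 fold changes were -1.25 ± 0.34 (edgeR adjusted p = 0.0737) and -1.07 ± 0.37 (0.160), and neither was called. In Fra2hep Eci2 stood at 118, 164 and 147 CPM in controls and at 88.1, 177 and 175 CPM in mutants, with a log2 fold change of 0.04 ± 0.33. Of the reductases, peroxisomal Decr2 was at -0.68 ± 0.30 and mitochondrial Decr1 at -0.26 ± 0.17 in Fra1hep.

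Peroxisomal oxidation itself was uneven. Acaa1a, the other thiolase, was at 191, 178 and 153 CPM in Fra1hep controls and at 106, 88.0 and 145 CPM in mutants, without overlap. Its log2 fold change was -0.62 ± 0.19 (edgeR adjusted p = 0.103). The bifunctional enzymes of the middle steps differed from the thiolases in size of change: Ehhadh was at -0.11 ± 0.30 and Hsd17b4 at -0.21 ± 0.12 in Fra1hep, and at 0.02 ± 0.30 and 0.08 ± 0.12 in Fra2hep. Their 95% intervals in Fra1hep were -0.70 to 0.47 and -0.46 to 0.03. The difference between genes was not tested.

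The thioesterases, which release free fatty acid from CoA, were scattered within groups. Acot3, a peroxisomal one, was at 1.959, 13.0 and 1.35 CPM in Fra1hep controls and at 5.31, 9.80 and 1.12 CPM in mutants. In Fra2hep it was at 4.20, 36.5 and 8.80 CPM in controls and at 0.292, 5.29 and 0.986 CPM in mutants. The groups overlapped in both strains, and the large Fra2hep estimate (log2 fold change -2.90 ± 1.23, edgeR adjusted p = 0.400) went with a control 2 several times above the other controls. Acot1 and Acot2, its cytosolic and mitochondrial relatives, were at -0.61 ± 0.38 and 0.19 ± 0.52 in Fra1hep. Acot2 was the only member above 0 there. Between 13.4% and 27.7% of the 50-base windows of Acot1 to Acot4 also occur in other genes, so their counts are uncertain. Vnn1, which degrades pantetheine from CoA turnover, was at -0.69 ± 0.44 in Fra1hep and 0.56 ± 0.43 in Fra2hep.

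Genes of ketone bodies and fuel choice did not pass the test. Bdh1, which interconverts acetoacetate and beta-hydroxybutyrate, was at 265, 305 and 292 CPM in Fra1hep controls and at 209, 241 and 206 CPM in mutants. The groups did not overlap, and the log2 fold change was -0.39 ± 0.23 (edgeR adjusted p = 0.435). Pdk4, the kinase that shuts off pyruvate oxidation in fasting, was at 6.33, 16.1 and 16.5 CPM in Fra1hep controls and at 6.45, 9.80 and 3.10 CPM in mutants. In Fra2hep it was at 24.6, 48.5 and 10.3 CPM in controls and at 5.90, 17.3 and 21.9 CPM in mutants. It overlapped in both strains (log2 fold change -1.02 ± 0.65 and -0.88 ± 0.63). Fgf21, a fasting hormone of the liver, and Ppargc1a, a coactivator of oxidation genes, reached at most 12.1 CPM and 9.78 CPM in any library, with log2 fold changes of -0.63 ± 0.83 and -0.33 ± 0.36 in Fra1hep.

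**Figure D3:**
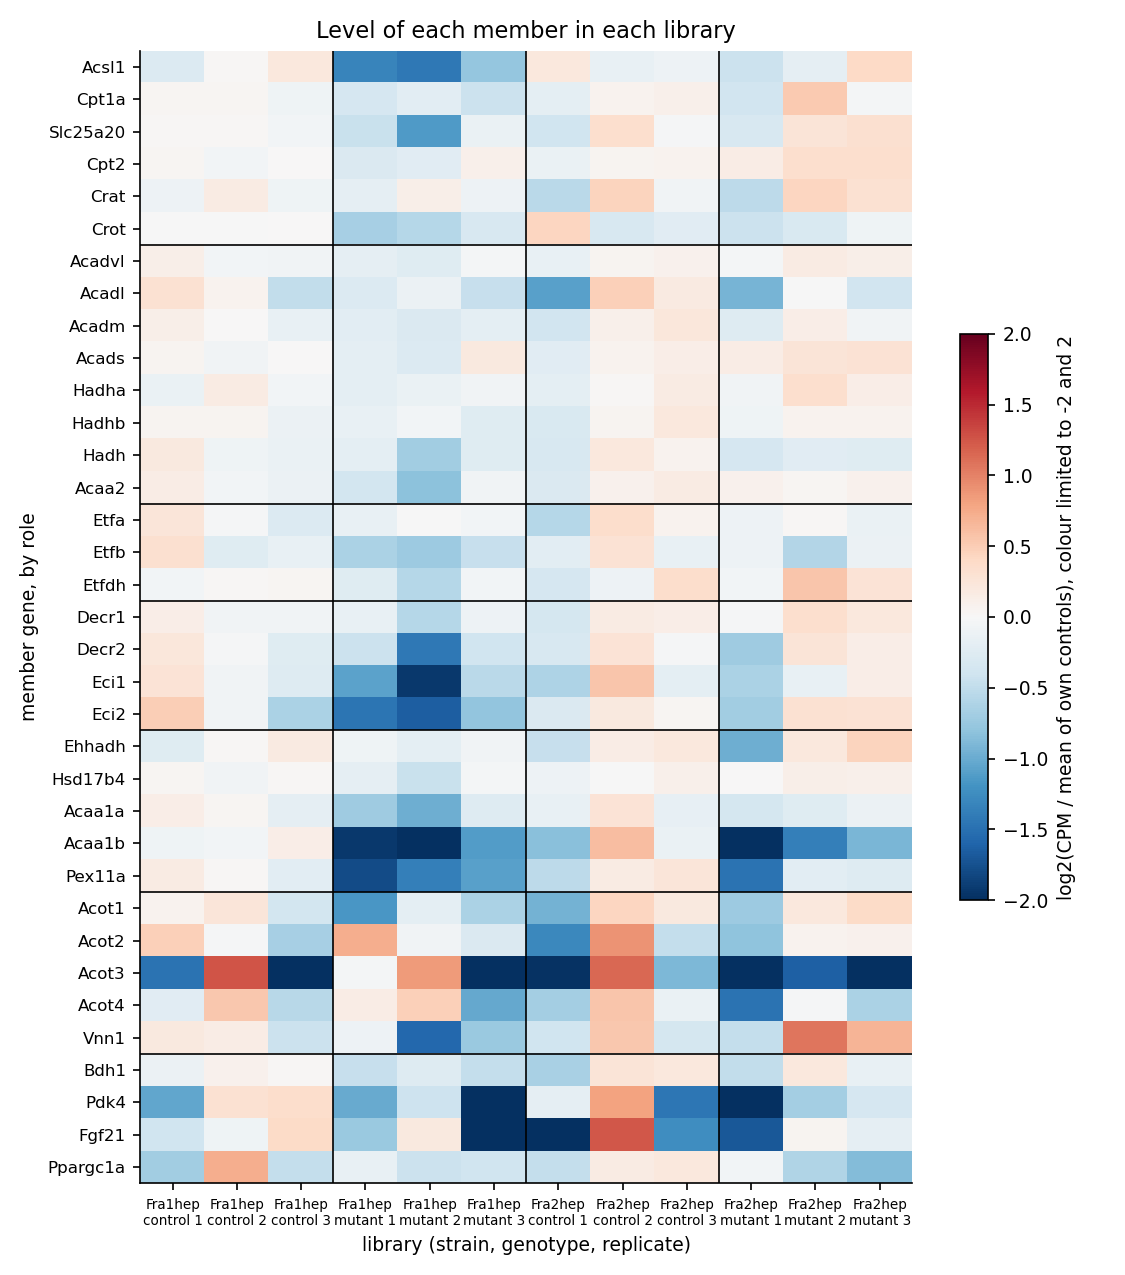
Level of each of the 35 genes in each of the 12 libraries as log2 of CPM over the mean of the strain's own controls, ordered by role, with colours limited to -2 and 2. The 3 Fra1hep mutants are blue across most rows, whereas among Fra2hep libraries control 1 and mutant 1 are the bluer ones.

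Peroxisomal members stood lower against their controls than mitochondrial members in both strains. In Fra1hep the median log2 fold change was -0.27 for the 19 mitochondrial genes and -0.57 for the 10 peroxisomal genes, and in Fra2hep it was 0.02 and -0.25. The 16 further peroxisomal oxidation genes described later did not share the lower Fra2hep value: their median there was 0.14. All 10 peroxisomal and 18 of 19 mitochondrial members were below 0 in Fra1hep, against 49.0% of all genes. All 3 Fra1hep mutants lay below all controls in 6 of 10 and in 8 of 19, against 9.98% of all genes. Of the peroxisomal members 1 was called lower in Fra1hep (Pex11a) and of the mitochondrial members 0, against 0.938% of all genes. The mitochondrial members Eci1 and Etfb nevertheless had an unadjusted p under 0.05, and DESeq2 called both. By library, the peroxisomal median deviation from the controls' mean was -0.55, -0.77 and -0.55 on the log2 scale in the Fra1hep mutants, and the mitochondrial one was -0.23, -0.26 and -0.18. Peroxisomal values were lower than mitochondrial ones in each of these 3 livers. No test was made of the lists, since their members were chosen with earlier results of these data known.

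**Figure D4:**
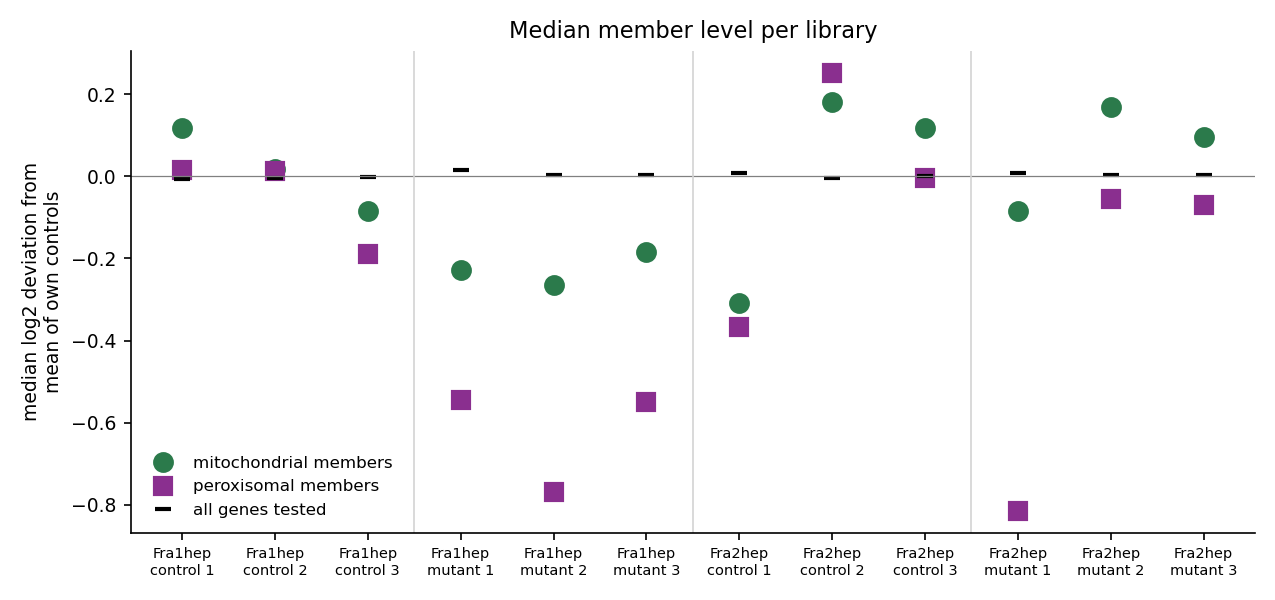
Median log2 deviation from the mean of the strain's own controls over the mitochondrial (circles) and peroxisomal (squares) members and over all genes tested (dashes), for each library. The 3 Fra1hep mutants have both medians below 0 with the peroxisomal one lower, and in Fra2hep mutant 1 reaches -0.81 while mutants 2 and 3 are at -0.06 and -0.07.

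Per kilobase of exon, peroxisomal genes made up a smaller share of the transcripts of either compartment in mutants. The share of the summed CPM per kilobase was 33.1%, 35.5% and 38.0% in Fra1hep controls and 26.2%, 22.8% and 28.5% in Fra1hep mutants. In Fra2hep it was 37.4%, 41.0% and 35.4% in controls and 23.1%, 29.3% and 32.9% in mutants. The means were 35.6% ± 2.44 and 25.9% ± 2.89 (SD, n = 3 each) in Fra1hep, and 37.9% ± 2.82 and 28.4% ± 4.97 in Fra2hep, and mutants and controls did not overlap in either strain. Acaa1b was the most abundant of the peroxisomal members per kilobase in the controls. Without Acaa1b and the thioesterases Acot2, Acot3 and Acot4 the means were 23.03% and 21.03% in Fra1hep and 24.3% and 22.6% in Fra2hep, and the Fra2hep groups overlapped.

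**Figure D5:**
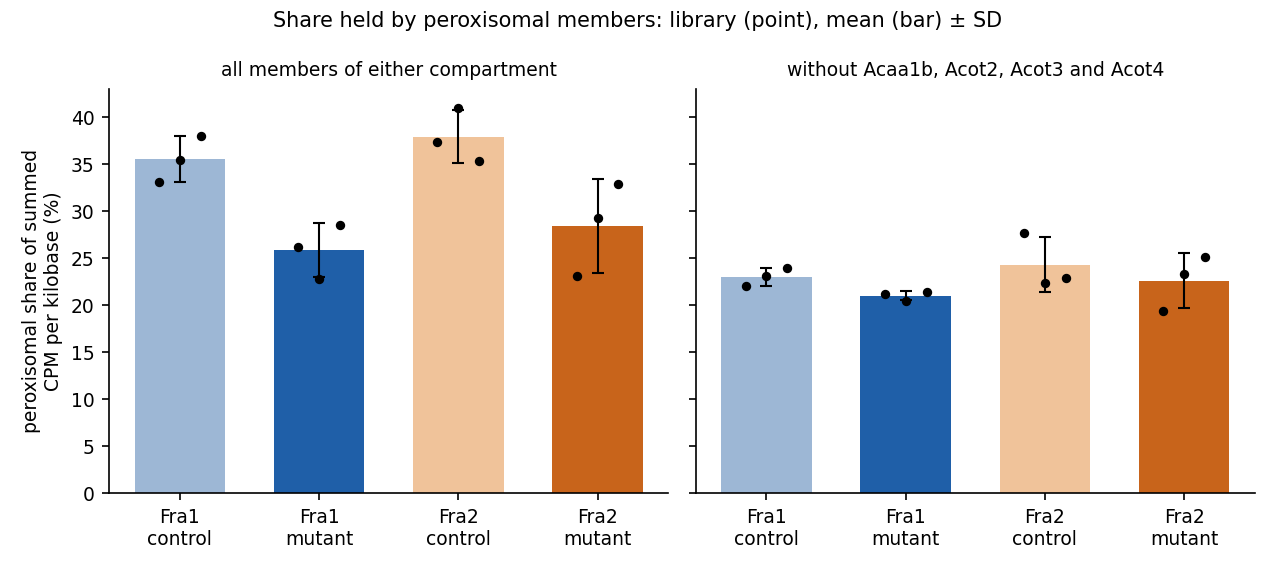
Share of summed CPM per kilobase held by peroxisomal members, by library (points) with mean (bar) and SD, over all 29 genes of either compartment (left) and without Acaa1b, Acot2, Acot3 and Acot4 (right). The gap between mutants and controls seen on the left, 25.9% against 35.6% in Fra1hep, narrows on the right to 21.03% against 23.03%.

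The order of abundance per kilobase in controls ran from Acaa2 at 620 CPM per kilobase (mean of the control libraries), through Acaa1b at 484, Etfa at 189, Acadvl at 168 and Hsd17b4 at 137, down to Acot2 at 2.15 and Ppargc1a at 1.07. Hadha and Hadhb, the subunits of a single trifunctional protein, start 273 bases apart on opposite strands and share 228 bases of their RefSeq promoter windows. Their levels per kilobase were nevertheless 43.5 and 3.34. Of the 50-base windows of Hadhb, 19.7% also occur in other genes, among them 18.1% in Gm13910, which had a median of 21 counts. The counts of Hadhb are uncertain to that extent, and its length of 6595 bases joins the exons of all its transcripts. The cause of the gap between the 2 levels was not tested.

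Fra2hep livers showed no called member among the 35, where 1.07% of all genes were called (0.22% lower and 0.845% higher). By edgeR 3 members had an unadjusted p under 0.05, against 11.5% of all genes: Cpt2, Acaa1b and Acot3. DESeq2 and limma-voom also called 0 members, against 3.18% and 0.995% of all genes. Cpt2 was at 135, 153 and 154 CPM in controls and at 163, 185 and 185 CPM in mutants. All 3 mutants lay above the controls by a small amount, 121% of control (log2 fold change 0.27 ± 0.12, edgeR adjusted p = 0.415). The members' median log2 fold change was -0.05, with 19 below 0 and 16 above, against 50.9% of all genes below 0. All mutants lay below all controls for 1 member (Acaa1b), against 8.17% of all genes, and above for 2 (Cpt2 and Acads), against 9.31%.

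The difference between the strain effects was called for 0 members by edgeR, DESeq2 and limma-voom, against 0.0355%, 0.532% and 0.0284% of all genes in that order. Unadjusted p was under 0.05 for 3 members (Acsl1, Eci2 and Cpt2), against 6.32% of all genes. For Acsl1 the Fra2hep effect minus the Fra1hep effect was 1.12 ± 0.34 on the log2 scale (edgeR adjusted p = 0.528, 95% interval 0.46 to 1.78), for Eci2 1.28 ± 0.48 and for Cpt2 0.40 ± 0.17. In 30 of 35 members the Fra1hep value was the lower one, 85.7% against 48.1% of all genes, and in 5 it was the higher one, against 51.9%. Across the 35 genes the log2 fold changes of the strains had a Pearson correlation of 0.19 and a Spearman correlation of 0.24, against 0.54 and 0.37 over all genes; the strains share no library, and genes are not independent replicates. Between the control livers of the strains edgeR, DESeq2 and limma-voom called 0 members. By edgeR and limma-voom 0.0% of all genes were called and by DESeq2 0.133%. By edgeR 0 members had an unadjusted p under 0.05, against 5.35% of all genes.

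Averaged over both strains 2 members fell (Pex11a and Acaa1b), where 6.24% of all genes were called, 1.9% lower and 4.33% higher, and no member rose. DESeq2 called 6 members, against 9.58% of all genes, and limma-voom 2, against 5.73%. By unadjusted p under 0.05 there were 9 members, against 19.4% of all genes, and 29 of 35 were below 0, against 49.9%.

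Fra2hep libraries differed among themselves in these genes within a genotype. Control 1 was the lowest of its group for 31 of 35 members (88.6%, against 31.6% of all genes), and mutant 1 was the lowest of its group for 31 of 35 (88.6%, against 34.8%). The peroxisomal median deviation was -0.37 in control 1 against 0.25 and 0.00 in the other controls, and -0.81 in mutant 1 against -0.06 and -0.07 in the other mutants. Without Fra2hep control 1 or any other single library, the number of members called in Fra2hep was 0. In Fra1hep the least even libraries were mutant 2, lowest for 19 of 35, and control 3, lowest for 20.

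Other genes of the pathway were read from 6 lists with 88 genes. Of 16 further peroxisomal oxidation genes, 2 fell in Fra1hep and 1 in Fra2hep, against 0.938% and 0.22% of all genes called lower. Abcd2, a transporter of very long-chain acyl-CoA into the peroxisome, was at 27.4, 44.2 and 18.6 CPM in Fra1hep controls and at 1.53, 2.95 and 1.47 CPM in mutants, and at 20.4, 42.2 and 36.2 CPM against 3.21, 0.709 and 1.14 CPM in Fra2hep. It was far lower in all mutants (log2 fold change -3.92 ± 0.54, edgeR adjusted p = 0.00206, and -4.30 ± 0.55, 0.00420). Hacl1, the lyase of branched-chain alpha-oxidation, was at 98.3, 60.4 and 38.3 CPM in Fra1hep controls and at 15.2, 28.1 and 16.5 CPM in mutants (-1.72 ± 0.41, edgeR adjusted p = 0.0419). Of all 20 alternatives 9 called it: the call was lost with limma-voom, with no filter, with only the libraries compared and in 7 of the 12 fits that leave out a library (adjusted p up to 0.155). The list's median in Fra1hep was -0.35. In it 12 of 16 were below 0 and 4 had an unadjusted p under 0.05, against 49.0% and 16.3% of all genes. In Fra2hep the list lay the other way, with 12 of 16 above 0 and a median of 0.14. Unadjusted p was under 0.05 for 5 of the 16, against 11.5% of all genes. All 3 Fra2hep mutants lay above all controls for 4 of the 16 and below for 1, against 9.31% and 8.17% of all genes. These 4, named after their values were seen, were Acox3, an acyl-CoA oxidase (log2 fold change 1.76 ± 0.70, edgeR adjusted p = 0.360), Slc27a2, a very long-chain acyl-CoA synthetase (0.62 ± 0.25, 0.361), Nudt7, a CoA hydrolase (0.57 ± 0.29, 0.491), and Scp2, a sterol carrier with a thiolase form (0.29 ± 0.15, 0.496), and none was called.

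Of 16 further mitochondrial oxidation genes, 1 rose in Fra1hep: Acot9, a mitochondrial thioesterase, from 3.07, 1.42 and 2.05 CPM in controls to 7.49, 12.1 and 4.37 CPM in mutants (1.88 ± 0.42, edgeR adjusted p = 0.0278). Of all 20 alternatives 14 called it: the call was lost with only the libraries compared and in 4 of the 12 fits that leave out a library (adjusted p up to 0.112). Its list had a median of -0.25 in Fra1hep, where 2.9% of all genes were called higher, and 0.02 in Fra2hep. In Fra2hep edgeR and DESeq2 called 0 of 16, against 1.07% and 3.18% of all genes. There 0 of 16 had an unadjusted p under 0.05, against 11.5%, and Acot13, with the smallest p, was at -0.29. Of 18 peroxisome biogenesis genes edgeR called 0 in either strain, against 3.84% of all genes in Fra1hep and 1.07% in Fra2hep. DESeq2 also called 0, against 7.26% and 3.18%. Unadjusted p was under 0.05 for 4 in Fra1hep and 0 in Fra2hep, against 16.3% and 11.5% of all genes. In Fra1hep 17 of 18 were below 0 with a median of -0.22, in Fra2hep 8 of 18 with a median of 0.03. In Fra1hep Pex16, with the smallest p, was at -0.40. All 3 Fra1hep mutants lay below all controls for 5 of the 18, against 9.98% of all genes. Pex11a was called and none of these 18 was, but at the shares of all genes called this does not set it apart. The difference was not tested. Of 13 regulators of oxidation edgeR called 0 in either strain, against the same 3.84% and 1.07% of all genes. DESeq2 also called 0 of the 13, against 7.26% and 3.18%. At an unadjusted p under 0.05 there were 2 in Fra1hep and 0 in Fra2hep, against the same 16.3% and 11.5%. Their median was -0.04 in Fra1hep, and Prkaa2, a catalytic subunit of AMP-activated kinase, had the smallest p at -0.32.

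Of 18 further fasting and PPAR-alpha response genes 2 fell in Fra1hep, against 0.938% of all genes called lower. In that strain 16 of 18 were below 0, against 49.0% of all genes, and the list's median was -0.78. By edgeR 12 of 18 had an unadjusted p under 0.05, against 16.3% of all genes. All 3 mutants lay below all controls for 12 of 18, against 9.98%. Cyp4a10, a fatty acid omega-hydroxylase, went from 72.0, 142 and 39.01 CPM to 11.2, 8.90 and 6.70 CPM (-3.24 ± 0.74, edgeR adjusted p = 0.0363). Fabp1, the liver fatty acid binding protein, went from 10008, 7157 and 4504 CPM to 376, 11.95 and 686 CPM (-4.33 ± 1.05, edgeR adjusted p = 0.0466). Of all 20 alternatives 11 called Cyp4a10 and 5 called Fabp1. Both calls were lost with limma-voom and with no filter, that of Fabp1 also with only the libraries compared, and of the 12 fits that leave out a library 5 called Cyp4a10 and 1 called Fabp1. In Fra2hep 12 of 18 were below 0 with a median of -0.12. There edgeR called 0 of 18 and DESeq2 1 (Cyp4a14), against 1.07% and 3.18% of all genes. By edgeR 2 had an unadjusted p under 0.05, against 11.5% of all genes. In that strain Cyp4a14, another omega-hydroxylase, went from 91.8, 101 and 47.5 CPM to 3.86, 1.69 and 6.91 CPM, at -4.26 ± 1.06 (edgeR adjusted p = 0.109). Averaged over the strains it fell by 4.39 ± 0.79 (edgeR adjusted p = 0.00784). Of 7 further ketone body genes edgeR called 0 in either strain, against 3.84% of all genes in Fra1hep and 1.07% in Fra2hep. DESeq2 called 2 in Fra1hep, against 7.26% of all genes. Unadjusted p was under 0.05 for 3 in Fra1hep and 1 in Fra2hep, against 16.3% and 11.5% of all genes. Averaged over the strains edgeR called 2 of the 7 lower, against 1.9% of all genes. Of these, Slc16a6, a transporter through which ketone bodies leave the liver cell, was at -0.94 ± 0.20 (edgeR adjusted p = 0.0173).

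Markers of liver cell types were read as sums. Hepatocyte markers (6 genes, mostly Alb) summed to 81580 to 118600 CPM in Fra1hep controls and 51140 to 104400 CPM in mutants, and to 100900 to 123300 CPM in Fra2hep controls and 53590 to 68050 CPM in mutants. The Fra2hep groups therefore did not overlap in this sum. Single hepatocyte markers differed in direction: log2 fold changes were below 0 for 5 and above for 1 in Fra1hep, and for 4 and 2 in Fra2hep. Of the 6, 0 were called in Fra1hep or Fra2hep, against 3.84% and 1.07% of all genes. Apoa1 alone fell in the average, where 1.9% of all genes were called lower. Their median was -0.27 in Fra1hep and -0.38 in Fra2hep. Unadjusted edgeR p was under 0.05 for 2 and 3 of them, against 16.3% and 11.5% of all genes. All mutants lay below all controls for 0 and 3, against 9.98% and 8.17%. Stellate cell markers (5 genes) summed to 177 to 213 CPM in Fra1hep controls and 285 to 336 CPM in Fra1hep mutants, and Dcn was called higher there. In Fra2hep the stellate sums were 256 to 284 CPM and 192 to 267 CPM. Sums for cholangiocytes (5 genes), Kupffer cells, recruited myeloid cells, lymphocytes and endothelium (4 genes each) overlapped between mutants and controls in both strains. Adipocyte and skeletal muscle markers stayed at or below 1.48 CPM for any single gene, with Lep at 0 in every library. The part of these shifts in the results above was not tested.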

How the data were processed

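Liver RNA of 12 mice was enriched for polyadenylated transcripts and sequenced as stranded libraries, per the labels' protocols. The authors deposited raw counts per gene as whole numbers, not normalized. The submitters' processing notes name the build GRCm38 (mm10), DESeq2 1.22.2, bedtools 2.27.1, STAR 2.6.1a and RSEM. Not given in the sources used here are the tool that counted, its strand setting and how it handled multi-gene reads. Counting error rests on totals of 16834041 to 20464807 counts per library.

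Groups came from the titles. In R 4.3.3, edgeR 4.0.16 fitted all 12 libraries with 4 group means (filterByExpr, TMM factors, robust quasi-likelihood), leaving 14076 genes, and p-values were adjusted over all of them. SEs were derived from the test statistic, and 95% intervals are 1.96 SE either way. They are narrower than the test itself would give, so counts of intervals within 2-fold are upper limits. For Slc25a20 in Fra1hep the interval of -1.01 to -0.01 excludes 0, while the unadjusted edgeR p was 0.0687. CPM use TMM-scaled library sizes. Levels per kilobase use exon lengths of GENCODE M21 on GRCm38. Littermates were separate animals, and no 2 libraries of a group agreed within sampling noise by a chi-square test. The scripts were tested on simulated data.

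The members and all lists were chosen with earlier results of these data known. Values per library are given for each member called in any comparison and, in each role, for the member with the smallest p in the average of the strains; up to 4 called genes of each further list are named, or else that with the smallest p. Levels of Cpt1a, Crot, Eci1, Acaa1a, Bdh1 and Cpt2 were added after their values were seen. Alternatives were DESeq2 1.42.0, no filter or at least 1 CPM in 3 libraries, limma-voom (limma 3.58.1), scaling by RLE or not at all, a replicate block, only the libraries compared, each library left out, and lists without paralogs. Protein sequences were not used here, and 1 called gene of the further lists is not reported here.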

Additional observations from a re-analysis of the deposited data

How the results depend on the processing

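The 2 members called in Fra1hep became 7 with DESeq2 (which called 7.26% rather than 3.84% of all genes, and added Acaa1a, Acaa1b, Eci1, Eci2 and Etfb) and 1 with no filter (Acsl1). The 2 called in the average of the strains became 6 with DESeq2 and 0 with no filter. Leaving out each library gave 0 to 3 calls in Fra1hep and 0 to 4 in the average, and 0 in every such fit for Fra2hep, for the difference of the strains and for the controls. Over the same fits the mitochondrial median ran from -0.32 to -0.20 in Fra1hep and from -0.11 to 0.12 in Fra2hep, and the peroxisomal one from -0.74 to -0.48 and from -0.34 to -0.14. The peroxisomal share of the Fra1hep mutants was 30.2% with no length correction. Without Acaa1b and the Acot paralogs the share was 23.03%, 21.03%, 24.3% and 22.6% in the order Fra1hep control, Fra1hep mutant, Fra2hep control, Fra2hep mutant. The cause of these changes was not tested. No called member changed direction in any alternative.

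With the replicate number as a block, 2 members were called in Fra1hep, 3 in the average and 1 in Fra2hep (Acot3, edgeR adjusted p = 0.0179), and 98 genes in all rather than 150 in Fra2hep. Deviations of same-numbered controls and mutants correlated at -0.15 to 0.07 over all genes tested. With 3 libraries a group this cannot decide whether samples of the same number shared a litter or cage. Among the members, Fra2hep control 1 and Fra2hep mutant 1 were each the lowest of their group for 31 of 35. The block also ended the Fra1hep calls of Hacl1, Acot9 and Fabp1. Not every sample correlated best with its own number.

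Counts were lowest for Fgf21, Acot2, Ppargc1a and Acot3. Their SEs in Fra1hep (0.83, 0.52, 0.36 and 1.15 in that order) all lay above the members' median of 0.24. Counts did not order the SEs throughout: Acot4, at 419 to 1788 counts, had an SE of 0.47 in Fra1hep and Hadhb, at 314 to 479, one of 0.13. At 3 libraries a group, at least 14 of 35 members had a 95% interval reaching beyond 2-fold in Fra1hep.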
